A study of Mus musculus with 12 samples.

Results

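The colony-stimulating factor genes described here are Csf1, Csf2, Csf3 and Il34, which encode secreted growth factors of myeloid cells, and Csf1r and Csf2ra, which encode receptors for them. These 6 genes were taken by symbol from the 57186 named genes of the count table, and all 6 were among the 15165 genes that passed the filter on low counts. Csf3 passed that filter through a single cell line, line A below, in both its untreated and its treated libraries, so it is left out of the tests between lines.

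CSF1 and IL34 are separate proteins that bind the same receptor, the tyrosine kinase CSF1R, and maintain monocytes and tissue macrophages. CSF2, also called GM-CSF, signals through an alpha chain that binds the factor (CSF2RA) and a common beta chain that carries the Janus kinase signal, and drives granulocytes, macrophages and dendritic cells. CSF3, or G-CSF, promotes the production and release of neutrophils. In pancreatic cancer, tumor cells are a known source of these factors, which recruit and shape myeloid cells in the surrounding tissue.

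The samples were pancreatic tumor cell lines of DDKC mice, which are homozygous for a ubiquitous Dkk3 knockout allele and carry Cre driven from Ptf1a, a gene of the pancreatic lineage. Every sample therefore lacked its own DKK3, a secreted glycoprotein of the Dickkopf family, and no line with intact Dkk3 was part of this comparison. The 3 lines, DDKC_9750, DDKC_9790 and DDKC_9804, are called A, B and C here and were either left untreated or exposed to rDKK3, recombinant DKK3 protein added to the medium, to ask how DKK3 supplied from outside acts on cells that do not make it. The labels give neither the concentration nor the exposure time of the RNA samples. Each line and condition was sequenced in 2 libraries, 12 in all, and the labels do not say whether these came from separate cultures.

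The untreated libraries held 7520741 to 24541083 counts and the rDKK3 libraries 3822987 to 11567095. Libraries of the same line and condition differed by less than sampling noise once a shift shared by all lines between the lower-numbered and the higher-numbered library was fitted (Poisson deviance over 12979 genes of 0.764 for each degree of freedom, against 6.39 without the shift). They were therefore summed and counted as 1 sample, so n = 3 lines per condition, and p-values measure only the spread between these samples. Levels are CPM, counts scaled to the library size after TMM normalization, and the floor of 3 counts corresponded to between 0.0856 and 0.291 CPM in the summed samples. Intervals and floors cover counting error only, because reads carried no molecular identifiers. Dkk3 had 0 counts in 11 libraries and 1 count in the other. All 8 epithelial markers were tested genes in these lines, with a summed level of 5332 to 9811 CPM untreated and 4247 to 8111 CPM with rDKK3. The epithelial sum also covered low markers. Epcam had 61, 22 and 28 counts untreated in lines A, B and C. Muc1 had 19 counts untreated and 10 with rDKK3 in line C. By contrast, 14 of 17 macrophage markers and all 8 neutrophil markers had at most 5 counts in every sample. Of the epithelial markers, edgeR's quasi-likelihood test on the summed samples called 0, against 1 of all tested genes. DESeq2 called 1 of these markers, against 103 genes of the whole table. In the edgeR fit 1 marker higher and 3 lower, the keratins Krt7, Krt8 and Krt19, had an unadjusted p under 0.05, as had 8.53% of all tested genes. Over 12 libraries 2 were called higher, Sox9 and Muc1, and 4 lower, these keratins and Krt18, against 7.95% and 10.1% of all genes. Of 9 fibroblast markers 4 had at most 5 counts in every sample, and the list summed to 7.27 to 13.3 CPM untreated and 5.75 to 12.3 CPM with rDKK3. Its member Pdpn, podoplanin, went from 8 to 44 counts in line A, 16.1 times as high in CPM (7.48 to 39.5), and had at most 1 count in the other lines. The other 3 tested members moved differently, with Col1a1 at 0.598 times and Pdgfra at 0.401 times their untreated level in line A, and Pdgfrb at 0.114 times, from 152 to 6 counts, in line C. In line C Pdgfra was 5.16 times as high. Of 4 endothelial markers 1 was tested, the receptor gene Kdr. It stood at 0.751 (0.318 to 1.59), 0.688 (0.574 to 0.823) and 2.19 (1.82 to 2.62) times its untreated level in lines A, B and C. The part of these markers in the results below was not tested.

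Under rDKK3 the growth factor genes showed large differences in single lines and little in others. In line A, Csf1, Csf2 and Csf3 were between 5.96 and 17.5 times as high as in untreated cells while Il34 was not higher. In line C, Csf2, Il34 and Csf1 were 4.26, 2.49 and 1.85 times as high, and Csf3 had 6 counts untreated and 0 with rDKK3. In line B the fold of Csf1 was 1.05 and that of Csf2 was 1.09, with Il34 at 1.49. The receptor genes Csf1r and Csf2ra stayed between 0.969 and 1.50 times their untreated level in every line.

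In the comparison of the 3 treated with the 3 untreated samples, blocked by line, 0 of the 6 genes were called, that is, had a Benjamini-Hochberg adjusted p under 0.05 over all tested genes in edgeR's quasi-likelihood test. In that fit 1 gene of the whole table was called, 0.00659% of those tested, and it was Lcn2. Of the 6 genes, 1 (Csf2) had an unadjusted p under 0.05, against 8.53% of all tested genes. DESeq2 on the same samples also called 0 of the 6, against 103 genes of the whole table. The log2 fold changes of all 6 in the edgeR fit were above 0, with a median of 0.91, or 0.62 without Csf3. Over all tested genes the median was -0.01 and 49.2% of them were above 0. The 6 genes were chosen with earlier results of these data known, so their comparison with all genes is a description only. When the 12 libraries entered as separate replicates, 5 of the 6, or 4 of the 5 without Csf3, were called higher, against 7.95% of all genes, and none lower, against 10.1% of all genes. The exception was Csf1r, with an adjusted p of 0.154. That second fit treats libraries of the same line and condition as independent replicates and holds no term for the shift between the library series. Since treated samples held fewer counts in every line, the counts were also thinned to equal totals, and the fitted log2 fold changes were then 1.31 for Csf1, 2.31 for Csf2, 2.88 for Csf3, 0.57 for Il34 and 0.39 for Csf2ra, while that of Csf1r went from 0.28 to 0.11. An exact sign permutation over 3 lines could not go below p = 0.25, two-sided.

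**Figure D1:**
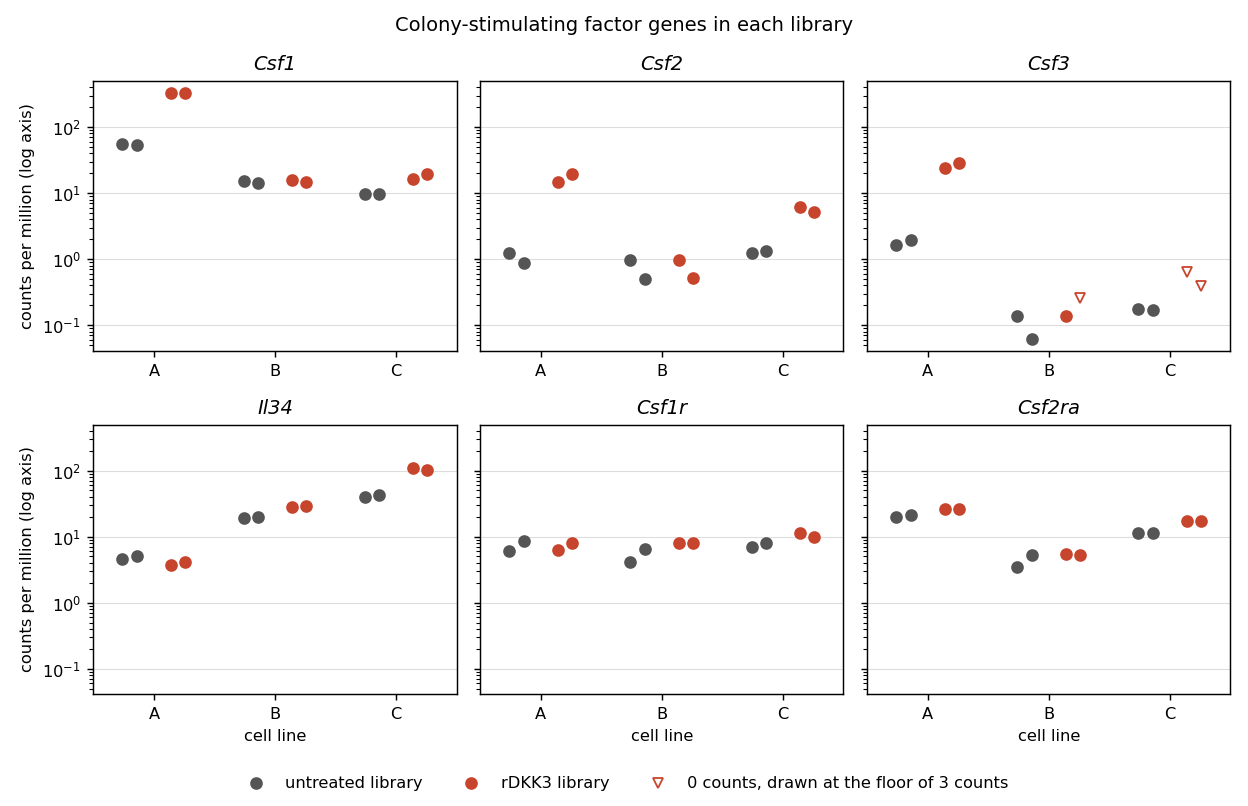
Level of each gene in CPM, on a log axis, in the 12 libraries by cell line. Filled points are single libraries, grey untreated and red with rDKK3, and open triangles are libraries with 0 counts, drawn at the floor of 3 counts. In line A the rDKK3 libraries lie far above the untreated ones for Csf1 (323 and 324 CPM against 56.0 and 53.9 CPM), Csf2 and Csf3, while in line B the libraries of Csf1 and Csf2 overlap.

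Csf1 (ENSMUSG00000014599.11; chr3:107648364-107667785, minus strand, GRCm39), the gene of macrophage colony-stimulating factor, was the most abundant of the 6 per exon length in line A. Its untreated libraries of line A stood at 56.0 and 53.9 CPM and its rDKK3 libraries at 323 and 324 CPM, with 1634 and 3333 summed counts. In line B the values were 15.0 and 14.3 CPM untreated and 15.7 and 15.0 CPM with rDKK3. In line C they were 9.65 and 9.80 CPM untreated and 16.2 and 19.2 CPM with rDKK3. Libraries of the same line and condition lay close together, the treated ones were above the untreated ones in lines A and C, and in line B they overlapped. The ratio of rDKK3 to untreated cells was 5.96 in line A (95% binomial interval 5.61 to 6.33), 1.05 in line B (0.896 to 1.24) and 1.85 in line C (1.55 to 2.20). In line A only 169 of the tested genes had a larger log2 difference. The group means were 26.2 ± 24.5 CPM untreated and 119 ± 177 CPM with rDKK3 (SD, n = 3), and the groups overlapped. The fitted log2 fold change was 1.21 ± 0.50 (SE), with an adjusted p of 0.590 on the summed samples and 0.0241 on 12 libraries.

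The bases before the annotated starts of Csf1 and Csf2 are shown because both genes were higher in the same lines. Each stretch is the last 200 bases upstream of the start that the count table gives, read from GRCm39 on the coding strand 5′ to 3′, with motif matches in capitals, at chr3:107667786-107667985 for Csf1 and chr11:54140494-54140693 for Csf2, both on the minus strand.
Csf1: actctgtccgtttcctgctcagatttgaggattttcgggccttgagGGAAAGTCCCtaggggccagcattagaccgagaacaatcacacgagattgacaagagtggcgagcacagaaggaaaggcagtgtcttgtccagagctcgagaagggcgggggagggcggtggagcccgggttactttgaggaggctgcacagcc
Csf2: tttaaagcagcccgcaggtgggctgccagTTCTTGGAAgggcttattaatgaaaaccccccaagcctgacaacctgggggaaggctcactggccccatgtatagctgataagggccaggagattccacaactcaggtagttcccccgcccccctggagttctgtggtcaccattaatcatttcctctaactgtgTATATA
The capitals in Csf1 mark a match to the NF-kB consensus, whose last base lies 145 bases before the start. Those in Csf2 mark a match to TTCNNNGAA, the palindrome bound by STAT factors, and TATATA, which ends at the base before the start. Both strands of 250 bases upstream were searched, and no match overlapped another. Of the 15163 tested genes with such a window, 10.7% held the NF-kB consensus, 6.15% held TTCNNNGAA and 2.77% held TATATA. The AP-1 motif TGANTCA and the C/EBP motif TTGCNNAA were in 4.81% and 8.01% of windows and matched in neither of these genes. The same window of Csf2ra held none of the 5 motifs. Matches in the windows of the other members, Csf3 and Il34 included, were not read out. Matches describe the letters and were not tested for binding.

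Il34 (ENSMUSG00000031750.16; chr8:111468461-111532556, minus strand), the second ligand gene of CSF1R, followed another order of lines than Csf1. In line A it stood at 4.64 and 5.04 CPM untreated and 3.77 and 4.11 CPM with rDKK3. In line B the libraries measured 19.2 and 19.7 CPM untreated and 28.1 and 29.4 CPM with rDKK3. In line C they measured 40.4 and 43.2 CPM untreated and 108 and 103 CPM with rDKK3. Treated libraries were above untreated ones in lines B and C and below them in line A. The ratio was 2.49 in line C (2.31 to 2.68) and 1.49 in line B (1.31 to 1.69), and 0.820 in line A, where the interval of 0.565 to 1.17 spanned equality. The groups overlapped, at 22.2 ± 18.8 CPM untreated and 46.0 ± 52.6 CPM with rDKK3 (SD, n = 3). The fitted log2 fold change was 0.62 ± 0.30 (SE), with an adjusted p of 0.626 on the summed samples and 0.0212 on 12 libraries.

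Per kilobase of exon, which allows both ligand genes to be compared, Csf1 exceeded Il34 in line A and Il34 exceeded Csf1 in the other lines. In untreated cells of line A, Csf1 reached 10.1 and Il34 2.56 CPM per kb, a ratio of Csf1 to Il34 of 3.94 (3.32 to 4.70). With rDKK3 the same line had 60.0 CPM per kb of Csf1 and 2.10 of Il34, and the ratio was 28.6 (21.0 to 39.9). In line B Il34 was 3.82 times Csf1 untreated and 5.39 times Csf1 with rDKK3. In line C these ratios of Il34 to Csf1 were 12.3 and 16.6. Thus in each line the ligand that already prevailed did so by a larger factor in the treated sample. Expressed as Csf1 over Il34, the intervals of the untreated and treated samples did not overlap in any line, at 0.227 to 0.302 and 0.160 to 0.215 in line B and 0.0719 to 0.0913 and 0.0520 to 0.0696 in line C. These intervals leave out variation between cultures.

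**Figure D2:**
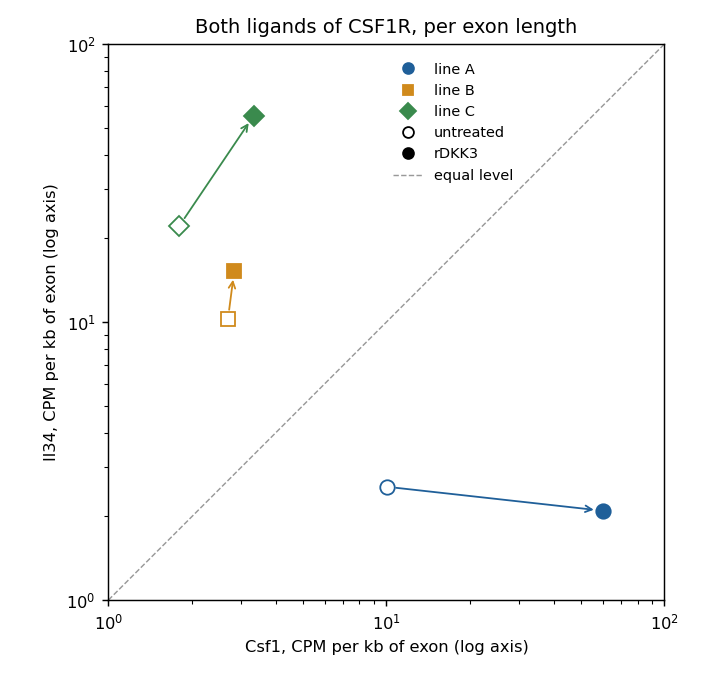
Level of Il34 against Csf1 in CPM per kb of exon, both on log axes, for the 6 summed samples. Colors and shapes mark the lines, open symbols are untreated, filled symbols are rDKK3, arrows join the samples of a line and the dashed line marks equal levels. Line A lies on the Csf1 side, moving from a ratio of 3.94 to 28.6, and lines B and C lie on the Il34 side.

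Csf2 (ENSMUSG00000018916.6; chr11:54138097-54140493, minus strand), which encodes GM-CSF, was low in every untreated sample. In line A it stood at 1.22 and 0.868 CPM untreated and 14.8 and 19.1 CPM with rDKK3, on 30 and 180 summed counts. In line C the values were 1.24 and 1.35 CPM untreated and 6.25 and 5.19 CPM with rDKK3, on 46 and 68 counts. In line B they were 0.966 and 0.50 CPM untreated and 0.980 and 0.525 CPM with rDKK3, on 15 and 13 counts. All treated libraries of lines A and C thus exceeded every untreated library, while those of line B lay among the untreated ones. The ratio was 17.5 in line A (11.9 to 26.7) and 4.26 in line C (2.89 to 6.33). In line B it was 1.09, and at this depth its interval of 0.477 to 2.46 does not exclude a change of either sign. Only 62 tested genes had a larger log2 difference in line A, and 99 in line C. The group means were 0.985 ± 0.334 CPM untreated and 7.92 ± 8.63 CPM with rDKK3 (SD, n = 3). Its fitted log2 fold change of 2.34 ± 0.78 (SE) had an adjusted p of 0.578 on the summed samples and 0.00578 on 12 libraries.

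The Csf2 transcript is also known for an AU-rich 3′ untranslated region that shortens the life of the mRNA. Its richest 30 bases are shown because a list of mRNA decay factors is described further on, with the nonamer TTATTTATT in capitals where it occurs, at chr11:54138155-54138184 on the minus strand of GRCm39.
Csf2 AU-rich stretch: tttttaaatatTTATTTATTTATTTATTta
The stretch held 5 overlapping copies of ATTTA and 3 of the nonamer. The whole 3′ untranslated region of 317 bases held 9 copies of ATTTA, or 28.4 per kb. Among tested protein-coding genes, leaving out those with a very short region, only 1 had more per kb. The nonamer was present 4 times in Csf2 and in none of Csf1, Csf3 and Il34, against 9.04% of 12328 genes. Csf3 had 8.93 copies of ATTTA per kb, Il34 2.28 and Csf1 1.89, with a median of 1.39 over the genes so ranked.

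Csf3 (ENSMUSG00000038067.3; chr11:98592089-98594455, plus strand), which encodes G-CSF, was detected above the floor in line A and in 1 further sample. In line A it stood at 1.66 and 1.95 CPM untreated and 23.9 and 28.3 CPM with rDKK3, on 55 and 274 summed counts. In line B it had 2 counts untreated and 1 with rDKK3, both at or under the floor. In line C it had 6 counts untreated, or 0.171 CPM, and 0 with rDKK3, where the floor was 0.246 CPM. Only the samples of line A allowed a fold, which was 14.6 (10.9 to 19.8), with 71 tested genes showing a larger log2 difference. In lines B and C no difference was detectable at this depth. The fitted log2 fold change of 2.53 ± 1.21 (SE) rested on line A. Its adjusted p was 0.620 on the summed samples and 0.00745 on 12 libraries, and without line A the fitted value was -1.79. DESeq2 on the summed samples put the log2 fold change of Csf3 at 0.68 ± 1.18 (SE).

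Csf1r (ENSMUSG00000024621.17; chr18:61233670-61265221, plus strand), the receptor gene of CSF1 and IL34, was expressed at a low and similar level in all samples. In line A its libraries measured 6.12 and 8.46 CPM untreated and 6.29 and 7.91 CPM with rDKK3. In line B they measured 4.14 and 6.56 CPM untreated and 7.98 and 7.87 CPM with rDKK3. In line C they measured 7.08 and 7.98 CPM untreated and 11.2 and 9.71 CPM with rDKK3. Treated libraries were above untreated ones in lines B and C and interleaved with them in line A. The ratios were 0.969 (0.736 to 1.26), 1.37 (1.08 to 1.74) and 1.338 (1.07 to 1.66) in lines A, B and C. The groups stood at 7.00 ± 1.03 CPM and 8.50 ± 1.57 CPM (SD, n = 3) and overlapped, with a fitted log2 fold change of 0.28 ± 0.20 (SE) and an adjusted p of 0.710 on the summed samples. That fold change was 0.56 with the lower-numbered libraries alone, 0.16 with the higher-numbered ones alone and 0.44 without line A.

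Csf2ra (ENSMUSG00000059326.8; chr19:61212395-61216867, minus strand), the gene of the alpha chain that binds CSF2, differed more between lines than with rDKK3. In line A it measured 20.1 and 21.3 CPM untreated and 26.4 CPM in both rDKK3 libraries. In line C it measured 11.5 and 11.4 CPM untreated and 17.5 and 17.0 CPM with rDKK3. In line B it measured 3.45 and 5.31 CPM untreated and 5.46 and 5.25 CPM with rDKK3. Treated libraries exceeded untreated ones in lines A and C and overlapped with them in line B. The ratios were 1.28 (1.10 to 1.48), 1.50 (1.27 to 1.78) and 1.13 (0.854 to 1.50) in lines A, C and B. The fitted log2 fold change was 0.38 ± 0.16 (SE), with an adjusted p of 0.608 on the summed samples and 0.0162 on 12 libraries.

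Because macrophages are the usual site of both receptors, their markers were read beside them. Of the 17 macrophage markers, 7 had 0 counts in every sample, among them Adgre1, Lyz2, Spi1 and Tyrobp, and the summed level of the list was 5.15 to 30.0 CPM untreated and 4.76 to 42.9 CPM with rDKK3. The highest was Cd68, a lysosomal protein that is not specific to macrophages and stood at 38.1 CPM in line B with rDKK3. It was 1.48, 1.64 and 2.54 times as high with rDKK3 in lines A, B and C (adjusted p = 0.578 on the summed samples and 0.00142 on 12 libraries). Mrc1, the mannose receptor CD206, was 4.42 times as high in line C (3.51 to 5.59), at 15.8 CPM with rDKK3, and 0.665 times as high in line B (0.494 to 0.890). The third tested marker, the receptor kinase gene Mertk, went from 86 to 0 counts in line A and from 85 to 20 in line C, where its ratio was 0.678 (0.394 to 1.11), and from 12 to 11 in line B. Ptprc, the pan-leukocyte marker CD45, had at most 3 counts in a sample. In bulk RNA, fewer cells of a type and less RNA per cell cannot be told apart. The part of other cells in the receptor and ligand counts was not tested.

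**Figure D3:**
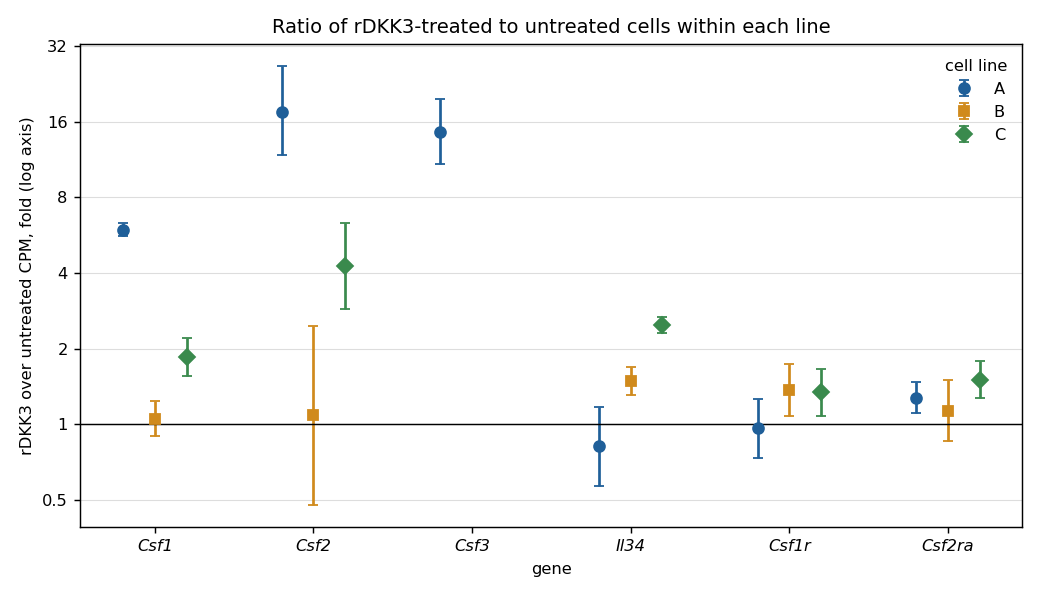
Ratio of rDKK3-treated to untreated CPM for each gene within each line, on a log axis, from summed libraries. Bars are 95% binomial intervals, which cover counting error only, and the horizontal line marks equal levels. Csf1, Csf2 and Csf3 of line A lie at 5.96, 17.5 and 14.6, line B lies near 1 for Csf1 and Csf2, and Csf3 is drawn for line A only, because in each of the other lines at least 1 sample was at or under the floor.

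The ratios of the lines were compared by interaction terms for line and treatment in the 12 libraries. With 1 summed sample per line and condition, the only residual of this fit is the difference between repeat libraries, so it compares these samples against technical spread and cannot test whether the lines respond differently. Of the 5 genes other than Csf3, 3 were called by this test, against 49.3% of all tested genes, so the share did not set these genes far apart from the background. The adjusted p was 8.91e-08 for Csf1, 1.04e-05 for Il34 and 0.000548 for Csf2 in edgeR's quasi-likelihood test. Csf1r (adjusted p = 0.327) and Csf2ra (adjusted p = 0.263) were not called.

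Levels also differed between the lines, in a fit that holds 1 difference per line for both conditions. In the fit to the summed samples, 3 of the 5 genes other than Csf3 were called for a difference between lines, against 35.3% of all tested genes. Relative to line A, Csf1 was lower by a log2 difference of -3.22 in line B and -3.47 in line C (adjusted p = 0.0169). Relative to line A, Il34 was higher by a log2 difference of 2.33 in line B and 3.85 in line C (adjusted p = 0.00770). Csf2ra differed by -2.21 and -0.74 (adjusted p = 0.00644). Csf2 (adjusted p = 0.141) and Csf1r (adjusted p = 0.422) were not called. With no filter on low counts Csf2 was called too (adjusted p = 0.0189). Ordered by level over the 6 samples, Il34 ran from line C with rDKK3 down to line A with rDKK3, and 4 of its 5 neighbouring pairs differed beyond counting error. For Csf1r only 1 of 5 neighbouring pairs did. For Csf1 the pairs within counting error were the rDKK3 samples of lines C and B, and the rDKK3 and untreated samples of line B. For Csf2 the lowest 4 samples, all 3 untreated ones and line B with rDKK3, formed an order whose 3 neighbouring pairs lay within counting error. For Csf2ra 4 of 5 neighbouring pairs differed, the exception being line B with and without rDKK3.

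The neighbourhood of the ligand genes was read mainly in the lines where they were higher. Il3, the interleukin 3 gene that lies 15636 bases upstream of Csf2 on the same strand, had 0 counts in every sample. The tested neighbour of Csf2, Acsl6, had log2 differences between rDKK3 and untreated cells of -0.44, -0.95 and 1.72 in lines A, B and C, where Csf2 stood at 4.01, 0.11 and 2.01. Ahcyl1, the only protein-coding gene within 100 kb of Csf1, stood at -0.02 in line A and 0.29 in line C. Near Csf3 the 5 tested protein-coding genes within that distance lay between -0.19 and 0.11 in line A, where Csf3 itself stood at 3.80. One of them, Nr1d1, a nuclear receptor of the circadian clock, stood at 1.09 in line C. There Csf3 had 6 counts untreated and 0 with rDKK3. Near Il34 the 5 tested neighbours lay between 0.14 and 0.79 in line C, where Il34 stood at 1.31. In line B they lay between 0.11 and 1.19, the highest being Mtss2, where Il34 stood at 0.57.

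The partner genes of these factors were read from 5 lists, whose counts by DESeq2 stand against 103 genes called over the whole table. Of the 13 related ligands and receptors, 5 were tested and 0 were called in the summed fit (0 at an unadjusted p under 0.05, 0 by DESeq2), with a median log2 fold change of 0.03. Csf2rb, the common beta chain without which CSF2RA does not signal, and Csf3r, the receptor of CSF3, had 0 counts in every sample, which allows at most 0.0856 to 0.291 CPM. These lines thus held transcripts of CSF2 and its alpha chain without detected transcripts of the beta chain. Kitl, the stem cell factor gene, was lower in all 3 lines, with a fitted log2 fold change of -0.19 ± 0.10 (SE, adjusted p = 0.637). Flt3l, the FLT3 ligand gene, stood at 0.53 ± 0.38 (adjusted p = 0.708), and Il5ra, the interleukin 5 receptor alpha chain, at -0.36 ± 0.60 (adjusted p = 0.873). Sdc1, a proteoglycan that binds IL34, was abundant, at 766 to 1045 CPM untreated and 716 to 1076 CPM with rDKK3. Its ratio of rDKK3 to untreated cells was 1.37, 0.935 and 0.826 in lines A, B and C. Over 12 libraries 1 of the 5, Kitl, was called lower, against 10.1% of all genes, and 0 higher, against 7.95%.

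Among 31 tested genes of receptor signalling, from Janus kinases to survival proteins, 0 were called in the summed fit and by DESeq2, while 3 higher and 1 lower had an unadjusted p under 0.05, against 8.53% of all tested genes. The median log2 fold change was 0.12. Ptpn6, the phosphatase SHP1 that dampens receptor signals, was lower in each line, from 16.8 to 7.48 CPM in line A, from 22.0 to 18.3 CPM in line B and from 6.76 to 2.87 CPM in line C, with a fitted log2 fold change of -0.86 ± 0.25 (SE, adjusted p = 0.578). Plcg2, a phospholipase, was higher in each line at 0.58 ± 0.17 (adjusted p = 0.578). Pim1, a kinase gene induced by STAT5, was also higher in each line at 0.44 ± 0.15 (adjusted p = 0.578). Over 12 libraries 3 genes of this list were called higher and 1 lower, against 7.95% and 10.1% of all genes.

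Of 22 transcription factors that act on these genes, 0 were called in the summed fit and by DESeq2, with 2 at an unadjusted p under 0.05 (8.53% of all tested genes), both higher. The median log2 fold change was 0.15. Cebpd, a C/EBP factor of the acute phase response, was well above its untreated level in lines A and C and near it in line B, going from 94.1 to 441 CPM in line A, from 11.4 to 11.7 CPM in line B and from 12.8 to 26.2 CPM in line C, with a fitted log2 fold change of 1.15 ± 0.42 (SE, adjusted p = 0.582). Relb, an NF-kB subunit, was 1.41, 1.25 and 1.29 times as high in lines A, B and C, at 0.39 ± 0.12 (adjusted p = 0.578). Cebpa stood at 0.35 ± 0.15 (adjusted p = 0.591). Over 12 libraries 6 of the 22 were called higher, against 7.95% of all genes, and none lower, against 10.1%.

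The list of mRNA decay factors held 12 regulators of mRNA stability and translation, not all of which promote decay. Of these, 0 were called in the summed fit and by DESeq2. At an unadjusted p under 0.05 there were 2, both higher, against 8.53% of all tested genes. The median log2 fold change was 0.01. Over 12 libraries 2 were called higher and 1 lower, against 7.95% and 10.1% of all genes. Zc3h12a, the ribonuclease Regnase-1 that degrades cytokine mRNAs, went from 19.1 to 101 CPM in line A, from 8.13 to 13.1 CPM in line B and from 12.7 to 18.8 CPM in line C, at 1.23 ± 0.40 (SE, adjusted p = 0.578). Tia1, which binds AU-rich stretches such as that of Csf2, stood at 0.34 ± 0.13 (adjusted p = 0.582), and Rc3h2, an RNA-binding ubiquitin ligase, at 0.21 ± 0.13 (adjusted p = 0.672). The 3 proteases that cleave membrane-bound CSF1 or activate its sheddases gave 0 calls in the summed fit (0 at an unadjusted p under 0.05, 0 by DESeq2), with Adam10 at 0.20 ± 0.15, Adam17 at 0.16 ± 0.18 and Furin at 0.11 ± 0.11 (SE).

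**Figure D4:**
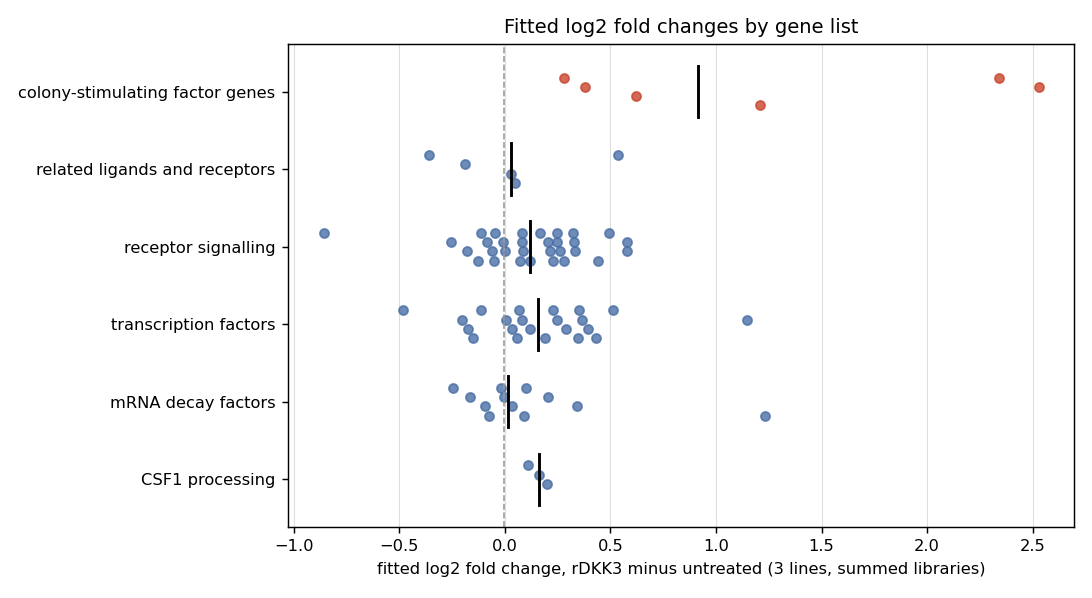
Fitted log2 fold change of rDKK3 against untreated cells for every tested gene of each list, from the summed samples of 3 lines, blocked by line. Each point is a gene, black bars are list medians and the dashed line is the median of all tested genes. The colony-stimulating factor genes have a median of 0.91 and the other 5 lists lie between 0.01 and 0.16, with 0 genes called in any of them. All lists were chosen with earlier results of these data known.

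Among 11377 protein-coding genes averaging a log2 CPM of 1 or more, those whose level over the 6 samples was most like that of Csf1 by Pearson correlation were Gramd2b (r = 0.993), Efna5 (0.991), Nfkbia (0.989), B4galt1 (0.989) and Ninl (0.986). Nfkbia, which encodes the NF-kB inhibitor IkB-alpha, had an untreated log2 CPM of 5.90, 5.29 and 4.68 in lines A, B and C and one of 7.33, 5.26 and 5.21 with rDKK3. Most like Csf2 were Ube2f (0.996), Atp6v1b2 (0.983), Lrig1 (0.982), Fosl2 (0.980) and Arhgap17 (0.979). Fosl2, an AP-1 subunit, had an untreated log2 CPM of 6.81, 6.62 and 6.73 in lines A, B and C and one of 7.70, 6.62 and 7.13 with rDKK3. The points share 3 lines and their libraries, and with 6 points many genes reach such values, so that the tenth gene still had r = 0.983 for Csf1 and 0.953 for Csf2. These likenesses are descriptions and carry no test.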

How the data were processed

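RNA of 3 DDKC tumor cell lines, untreated or with rDKK3, was sequenced in 12 libraries. The authors prepared directional libraries, sequenced pairs of 50-base reads, mapped them with STAR (2.7.9a in the submitters' processing notes) to the GRCm39 build, counted by strand over GENCODE genes and deposited these raw counts unnormalized. The deposited file also holds 92 rows that name no gene, with 0 counts, which were left out.

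Counts of the 2 libraries of a line and condition were summed. Differences were tested by the quasi-likelihood F test of edgeR 4.0.16 (R 4.3.3) after TMM scaling, on a model of line plus treatment, and genes with a Benjamini-Hochberg adjusted p under 0.05 were called. filterByExpr, given the 6 combinations of line and condition over the 12 libraries, chose the genes tested. An SE is the log2 fold change divided by the root of F. Interaction terms were fitted to the 12 libraries. The line named in the labels pairs the samples: deviations from the condition means correlated at 0.805 to 0.874 within a line and at -0.536 to -0.266 between lines. Log2 CPM used a prior count of 2, and folds within a line carry 95% exact binomial intervals. Folds were given only where both samples exceeded 3 counts. Exon lengths are the union of basic transcripts of GENCODE M39, a later release than the one counted. Sequences are of GRCm39, and 3′ untranslated regions are of the Ensembl canonical transcripts. Scripts were tested on simulated data.

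The members and gene lists were chosen with earlier results of these data known. Named genes are the 6 members, Dkk3, and, from each pathway list, the called genes or otherwise the 3 with the lowest unadjusted p, plus the 5 genes most like Csf1 and Csf2. Lcn2, Sdc1, Csf2rb, Csf3r, Il3, Il3ra, Ahcyl1, Acsl6, Nr1d1, Mtss2, Cd68, Mrc1, Mertk, Pdpn, Col1a1, Pdgfra, Pdgfrb, Sox9, Muc1, Epcam and the keratins were named after their values were seen. The markers Adgre1, Lyz2, Spi1, Tyrobp, Ptprc and Kdr were also named outside this rule. Alternatives covered DESeq2 1.42.0, RLE scaling, no filter (at least 1 count), fits without the line, the 12 libraries as replicates, the library number series as a covariate, the lower-numbered or the higher-numbered libraries alone, thinned counts and leaving out each line. RefSeq upstream sequences of Csf3 and Il34 and protein sequences were not used here. A further allele that all of the mice carried is not reported here.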

Additional observations from a re-analysis of the deposited data

Results flagged for a closer look

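The ratios of rDKK3 to untreated cells differed between the lines beyond the spread of repeat libraries for 3 of the 5 genes other than Csf3, by interaction terms fitted to 12 libraries (edgeR's quasi-likelihood test, Benjamini-Hochberg adjusted). For Csf1 the adjusted p was 8.91e-08, with ratios of 5.96, 1.05 and 1.85 in lines A, B and C. For Il34 it was 1.04e-05, with ratios of 0.820, 1.49 and 2.49. For Csf2 it was 0.000548, with ratios of 17.5, 1.09 and 4.26. Csf3 was left out because it passed the filter on low counts through line A alone. The same test called 49.3% of all genes, and its residual is the difference between the paired libraries, the shift between library series included, so it holds for these samples and does not test a difference in response between the lines.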

How the results depend on the processing

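On the summed samples, blocked by line, 0 of the 6 genes were called, and the count was also 0 with DESeq2, RLE scaling, no filter, thinned counts, either library series alone, each line left out, and no replicate block. It was 5 with the 12 libraries as replicates and also with the library series added. Fitted log2 fold changes in these fits were 1.30 and 1.31 for Csf1, 2.53 and 2.64 for Csf2, 3.10 and 3.30 for Csf3, 0.74 and 0.75 for Il34, and 0.41 and 0.41 for Csf2ra, each past the threshold. These fits treat repeat libraries as independent. All fitted values of Csf1, Csf2, Il34, Csf1r and Csf2ra were above 0 in each of 13 alternatives, while Csf3 ranged from -1.79 without line A to 3.65 with no replicate block on the summed samples, with 3.53 without line C, and the cause was not tested. DESeq2 put Csf3 at 0.68. Without line A the fitted value of Csf1 was 0.49 and that of Csf2 1.35; without line C that of Il34 was 0.20.

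Among all tested genes 1 was called in the summed fit, 103 with DESeq2, 90 without the filter, 6 with the lower-numbered libraries alone, 4 with thinned counts, 0 to 2 with a line left out, and 0 with no replicate block on either the summed samples or the 12 libraries. With 12 libraries as replicates it was 2744, and 3124 with the library series. Line dependence was called for Csf1, Csf2 and Il34 and not for Csf1r and Csf2ra with RLE scaling, no filter and the library series. For levels between lines, no filter added Csf2 to the genes called (adjusted p = 0.0189). Within-line values kept their sign in 46 of 48 recomputations. Depth limits Csf3 in lines B and C and Csf2 in line B.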

Other observations

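The alpha chains of the other receptors that share the common beta chain were also present without it. Il3ra, which binds interleukin 3, stood at 51.4 CPM untreated and 80.1 CPM with rDKK3 in line A, 23.8 and 19.1 CPM in line B, and 41.8 and 36.5 CPM in line C, so that only line A was higher with rDKK3. Il5ra, which binds interleukin 5, stood at 16.1 and 32.2 CPM in line C, on 563 and 392 counts. In line B it stood at 2.84 and 0.973 CPM, on 66 and 18 counts, and in line A at 1.23 and 0.388 CPM, on 37 and 4 counts. The ratio of rDKK3 to untreated cells was 2.00 in line C (95% binomial interval 1.76 to 2.28) and 0.343 in line B (0.192 to 0.585). These intervals cover counting error only. Il3ra was named after its values were seen.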
